A study of Mus musculus with 15 samples.

Results

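The genes described here encode the subunits of the proteasome. A gene was taken when it is protein-coding, is listed in both count tables and has a symbol made of *Psma*, *Psmb*, *Psmc* or *Psmd* and a number, or is *Psme1* to *Psme4*. This gave 43 of the 24134 genes measured. They are 8 genes for the alpha rings of the core particle, 7 for its constitutive beta rings, 4 for beta subunits of the immunoproteasome or thymoproteasome, 6 ATPases and 11 other subunits of the regulatory cap, 3 chaperones that assemble the base of the cap, and 4 activators. Another 8 genes with symbols that begin with *Psm* are not subunits by this rule, among them *Psme2b*, a near-copy of *Psme2*.

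The proteasome degrades proteins that carry ubiquitin chains. Its barrel-shaped core particle has an outer alpha ring at each end, which gates the barrel, and inner beta rings with the catalytic subunits PSMB5, PSMB6 and PSMB7, while the cap recognises, unfolds and feeds in the substrate. Interferon and immune cells replace the catalytic subunits with PSMB8, PSMB9 and PSMB10, which gives the immunoproteasome known for making peptides for MHC class I. Tankyrases attach poly(ADP-ribose) to target proteins such as Axin, which are then ubiquitinated and degraded by the proteasome.

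The RNA came from articular chondrocytes of 4- to 5-day-old ICR mice, cultured without passage, with 3 libraries in each of 5 groups that the study calls biological replicates. In the drug set, DMSO (the vehicle), XAV939 at 10 µM or IWR-1 at 10 µM was present for 108 h, and both compounds are small molecules of unrelated structure that inhibit tankyrase. In the siRNA set, cells received control siRNA (siCtrl) or siRNAs against *Tnks* and *Tnks2* together (siTnks/2), which lower the transcripts without removing the genes. Each library held between 26857070 and 36615194 counts. *Tnks* measured 69.0, 58.4 and 70.1 CPM (counts scaled to the library size) with siCtrl and 19.5, 12.7 and 24.0 CPM under siTnks/2, and *Tnks2* fell with siTnks/2 as well (log2 fold change −1.10, SE 0.11, edgeR adjusted p = 0.00384). All 9 markers of chondrocytes were detected in every library. The siRNA and drug tables were scaled separately, so levels are compared only within a table. In these bulk samples, fewer cells that express a gene and less RNA per cell cannot be told apart.

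Most subunit genes were highly and evenly expressed. The members together took 3694 to 3785 CPM in the siCtrl libraries and 3475 to 3595 CPM in the siTnks/2 libraries. They took 3303 to 4106 CPM under DMSO, 3728 to 4211 CPM under XAV939 and 3824 to 4259 CPM under IWR-1, so the drug groups overlapped. Per kilobase of exons, the constitutive beta genes had the highest median of any class with DMSO, 91.9 CPM per kilobase, and *Psmb6* was the highest member at 112 CPM per kilobase. In the same libraries the median of the 6 ATPases was 65.4, that of the alpha genes 59.3, that of the other cap subunits 52.1 and that of the assembly chaperones 14.2 CPM per kilobase. The genes known mainly from immune or germ cells were low, with *Psmb10* at 8.19, *Psma8* at 2.81, *Psmb8* at 2.09 and *Psmb9* at 0.638 CPM per kilobase. *Psmb11*, the thymus-specific beta subunit, had at most 8 counts in a library and was not tested, which left 42 members.

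Against their controls, few members passed an adjusted p of 0.05 (edgeR's quasi-likelihood test, Benjamini-Hochberg over all genes tested), and most changes were small. With siTnks/2, 1 member rose and 5 fell, or 2.38% and 11.9% of the 42, where 10.4% of all 13672 genes tested rose and 7.61% fell. With XAV939, 3 members rose (7.14%) and 0 fell, where 7.57% of 13873 genes rose and 9.85% fell. At an unadjusted p under 0.05, 2 members were lower with XAV939, and DESeq2 called 0 lower. With IWR-1, 6 members rose (14.3%) and 3 fell (7.14%), where 16.2% of all genes rose and 20.2% fell. The median log2 fold change of the members was −0.09 with siTnks/2, 0.10 with XAV939 and 0.10 with IWR-1, and the median of all genes was −0.0012, 0.016 and 0.0056. Of the 42 members, 34 lay below 0 with siTnks/2, while 30 lay above 0 with XAV939 and 29 with IWR-1. Between 39 and 41 members per comparison changed by less than 0.5 on the log2 scale. The median absolute change of all genes tested was 0.206 with siTnks/2, 0.244 with XAV939 and 0.315 with IWR-1. Most genes tested therefore changed by less than 0.5 as well. XAV939 and IWR-1 were compared with the same DMSO libraries.

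The counts above rose when the replicate number was fitted as a block, which the main test did not include. With the block, 2 members were higher and 9 lower with siTnks/2 (18.1% and 16.5% of all genes), 7 higher and 1 lower with XAV939 (16% and 17.4%), and 10 higher and 4 lower with IWR-1 (22.2% and 25.3%). The counts for siTnks/2 and XAV939 also rested on single libraries. Without siCtrl replicate 1, siCtrl replicate 3 or siTnks/2 replicate 1, edgeR called 0 members with knockdown (9 at an unadjusted p under 0.05 in each), against 1 without siCtrl replicate 2 and 3 without siTnks/2 replicate 3. Without DMSO replicate 1 or XAV939 replicate 1 it called 0 with XAV939 (3 and 6 at an unadjusted p under 0.05), and it called 1 without DMSO replicate 3 and 1 without XAV939 replicate 2. A fit of only DMSO and XAV939 also called 0 (6 unadjusted). The count with IWR-1 stayed between 6 and 11 as each library was left out.

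**Figure D1:**
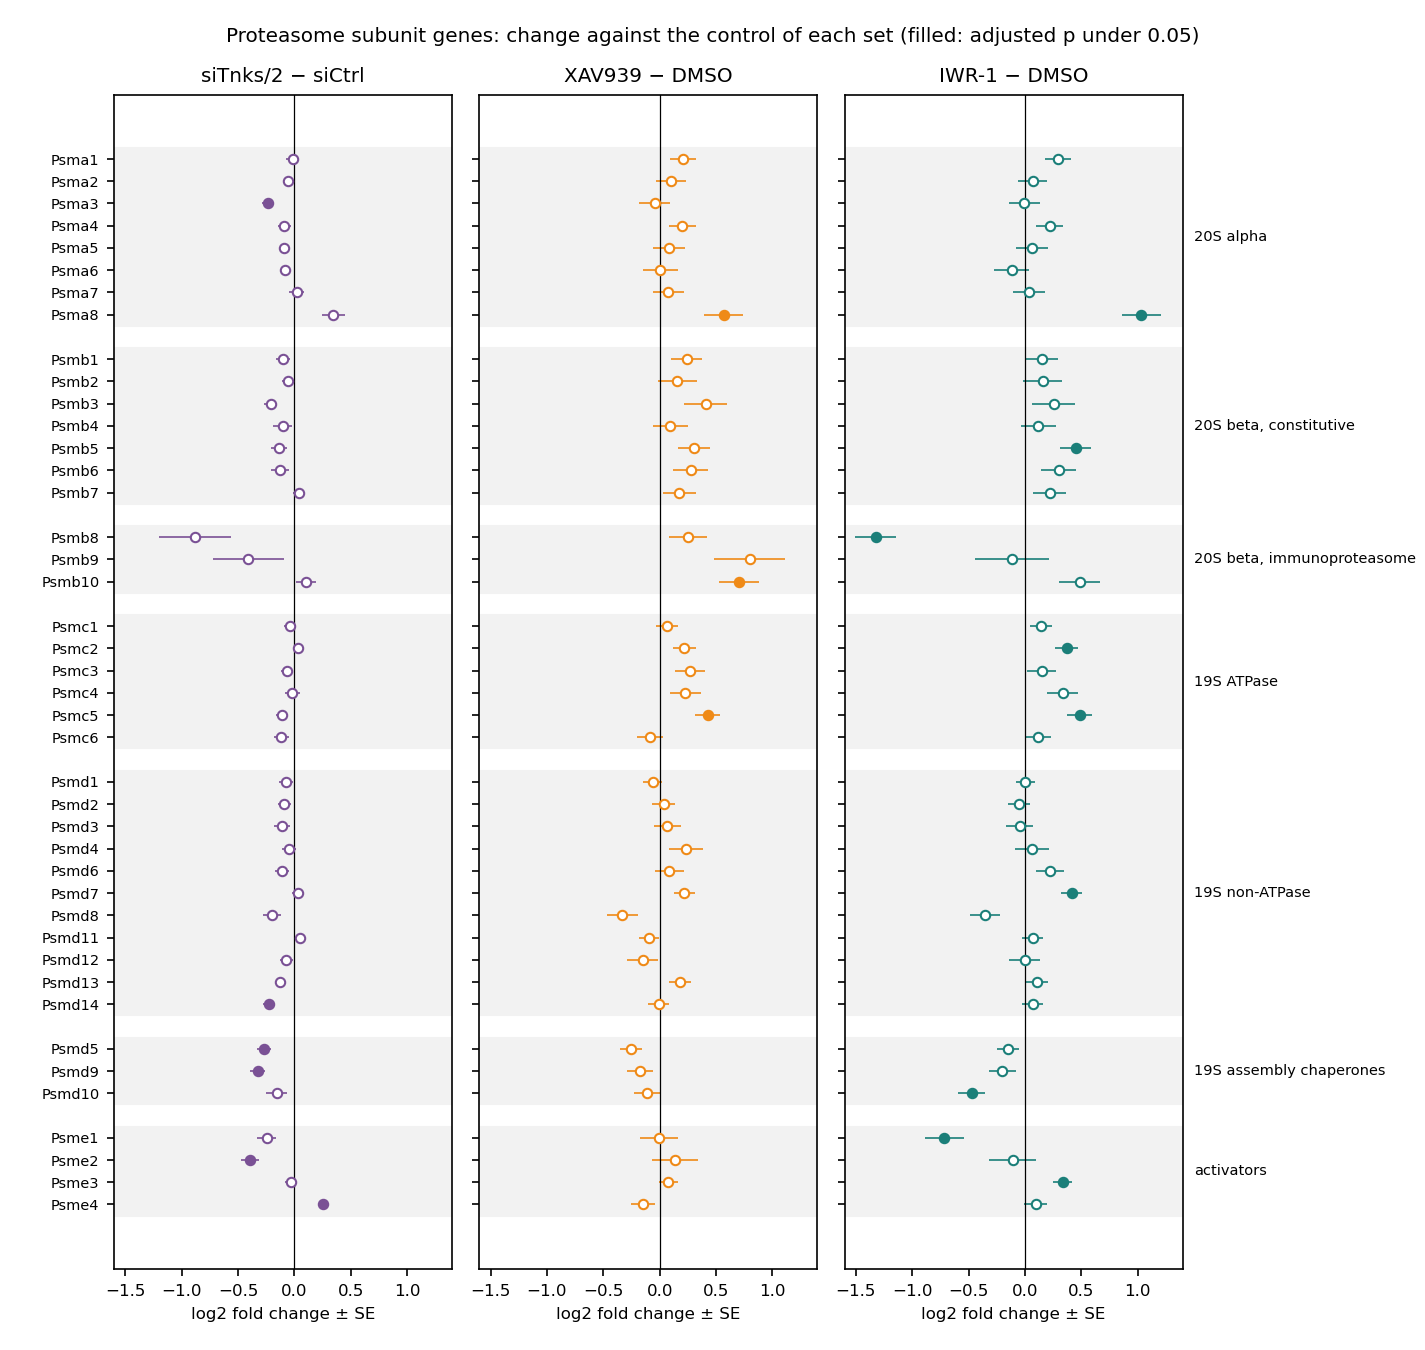
Log2 fold change with its standard error (horizontal axis) of each of the 42 tested members, grouped by class, in the siTnks/2, XAV939 and IWR-1 comparisons, where filled points passed an adjusted p of 0.05. Most points lie within 0.5 of 0, and *Psmb8* (−1.32) and *Psma8* (1.03) lie farthest out with IWR-1.

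The alpha genes, which form the outer rings, hardly moved, apart from *Psma8*. *Psma8* encodes the alpha subunit of the testis proteasome and lies on chromosome 18, 14706135 to 14762301 (mm10, RefSeq). It measured 4.73, 5.18 and 4.34 CPM under DMSO and 11.1, 9.18 and 8.90 CPM under IWR-1. XAV939 libraries stood between them at 8.004, 5.52 and 7.53 CPM, and every library of either compound lay above every DMSO library. *Psma8* rose by 1.03 (SE 0.17, adjusted p = 0.000759) with IWR-1, the smallest adjusted p among the members that rose. The change with XAV939 was 0.57 (SE 0.17, adjusted p = 0.0439), and that call was lost in 10 of 16 alternatives, 8 of them the omission of a single library. With siTnks/2, 8.61, 9.59 and 9.79 CPM stood above 7.31, 7.69 and 7.07 CPM under siCtrl. That change of 0.34 (SE 0.10) missed the threshold at adjusted p = 0.0595 and passed it with the replicate block (adjusted p = 0.0405). *Psma3* was the 1 other alpha gene called, at 92.8, 89.7 and 92.1 CPM under siTnks/2 and 108, 109 and 107 CPM under siCtrl. The groups did not overlap, and *Psma3* fell by 0.24 on the log2 scale (SE 0.05, adjusted p = 0.0207). This call was lost without siCtrl replicate 1, 2 or 3 or siTnks/2 replicate 1. The other 6 alpha genes changed by at most 0.30 in any of the 3 comparisons. *Psma1* with IWR-1, at 0.30, passed with the block and not in the main test (adjusted p = 0.0139, and 0.0673 without it).

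Of the 7 constitutive beta genes, 1 was called in any comparison against a control, although all 7 had positive changes with both compounds. Both compounds were compared with the same DMSO libraries. The summed level of the class was 516 to 769 CPM under DMSO, lowest in replicate 3. It was 674 to 826 CPM under XAV939 and 684 to 833 CPM under IWR-1, so the ranges overlapped. The median log2 change was 0.24 with XAV939 and 0.22 with IWR-1, and −0.10 with siTnks/2, where 6 of 7 were negative. *Psmb5*, which provides the chymotrypsin-like activity, measured 84.6, 94.3 and 64.8 CPM under DMSO, 109, 97.0 and 95.6 CPM under XAV939 and 122, 109.9 and 100.4 CPM under IWR-1. DMSO replicate 3 was the lowest of these libraries, and every library with either compound lay above the DMSO libraries. *Psmb5* rose by 0.45 with IWR-1 (SE 0.14, adjusted p = 0.027), a call lost when DMSO replicate 1 or 3 or IWR-1 replicate 1 or 2 was left out. The change with XAV939 was 0.30 (adjusted p = 0.157, and 0.0342 with the block). *Psmb6*, the caspase-like subunit, measured 97.3, 101 and 71.1 CPM under DMSO and 122, 107 and 102 CPM under IWR-1. *Psmb7*, the trypsin-like subunit, measured 83.2, 95.8 and 66.4 CPM under DMSO and 103, 97.3 and 85.7 CPM under IWR-1. Neither passed the threshold without the block, and *Psmb6* passed with it for XAV939 (0.28, adjusted p = 0.0387) and IWR-1 (0.31, adjusted p = 0.0167). *Psmb3*, a structural beta subunit, missed the threshold in the main test. It passed with the block, lower with siTnks/2 (−0.21, adjusted p = 0.0158) and higher with XAV939 (0.42, adjusted p = 0.0139). DESeq2, without the block, also called it lower with siTnks/2 (adjusted p = 0.0355).

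In the cap, *Psmc5* was the member called with both compounds. The 6 ATPases form the ring that unfolds substrates, and their median change was −0.05 with siTnks/2, 0.22 with XAV939 and 0.24 with IWR-1. *Psmc5* measured 88.7, 97.8 and 79.5 CPM under DMSO, 119, 132 and 107 CPM under XAV939 and 128, 128 and 118 CPM under IWR-1. Neither compound's libraries overlapped those of DMSO, and *Psmc5* rose by 0.43 with XAV939 (SE 0.11, adjusted p = 0.0238) and by 0.49 with IWR-1 (SE 0.11, adjusted p = 0.00568). The IWR-1 call held in all 16 alternatives, and the XAV939 call was lost in 5 of 16, namely without DMSO replicate 1 or 3, without XAV939 replicate 1 or 2, and with DMSO and XAV939 fitted alone. *Psmc2* also rose with IWR-1 (0.37, SE 0.10, adjusted p = 0.0155), except that the call was lost without DMSO replicate 1, IWR-1 replicate 1 or IWR-1 replicate 2. *Psmc4* changed by 0.34 with IWR-1 and passed with the block and not in the main test (adjusted p = 0.00548, and 0.0806 without it). No ATPase was called with siTnks/2 (edgeR, 0 of 6, with 0 at an unadjusted p under 0.05 and 0 by DESeq2).

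Among the 11 other cap subunits, *Psmd7* rose with IWR-1 and *Psmd14* fell with siTnks/2. *Psmd14* is the enzyme that removes ubiquitin chains from substrates, and *Psmd7* is its partner subunit. *Psmd7* measured 125, 129.9 and 117 CPM under DMSO, 141, 154 and 139 CPM under XAV939 and 176, 165 and 155 CPM under IWR-1. The 3 groups stood in that order without overlap, and *Psmd7* rose by 0.41 with IWR-1 (SE 0.09, adjusted p = 0.00546) in each of the 16 alternatives. *Psmd14* fell by 0.23 on the log2 scale with siTnks/2 (SE 0.05, adjusted p = 0.0297), and it lost this call without any 1 of 5 libraries. *Psmd8* was negative in all 3 comparisons and missed the threshold in the main test. With the block it passed, at −0.20 with siTnks/2 (adjusted p = 0.0219), −0.33 with XAV939 (adjusted p = 0.0163) and −0.35 with IWR-1 (adjusted p = 0.0071). DESeq2, without the block, also called it with IWR-1 (adjusted p = 0.0359). The remaining 8 changed by at most 0.23 in either direction.

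The 3 assembly chaperones, which bind ATPases while the base of the cap is built and then leave, were negative in every comparison against a control. *Psmd9* measured 23.0, 23.8 and 22.5 CPM under siCtrl and 19.02, 18.4 and 17.9 CPM under siTnks/2. *Psmd5* measured 64.1, 67.9 and 60.5 CPM under siCtrl and 53.7, 52.3 and 54.0 CPM under siTnks/2. Neither gene's groups overlapped, and *Psmd9* fell by 0.33 (SE 0.07, adjusted p = 0.0216) and *Psmd5* by 0.27 (SE 0.06, adjusted p = 0.0291). The *Psmd9* call was lost without siCtrl replicate 1, 2 or 3 or siTnks/2 replicate 1 (adjusted p 0.0667 to 0.093). The *Psmd5* call was lost without any 1 of these libraries or siTnks/2 replicate 3 (adjusted p 0.0541 to 0.111). *Psmd10*, also known as gankyrin, measured 23.3, 27.1 and 21.3 CPM under DMSO, 22.9, 22.6 and 20.8 CPM under XAV939 and 18.4, 17.3 and 15.9 CPM under IWR-1. IWR-1 libraries lay below all others of the table, and *Psmd10* fell by 0.47 with IWR-1 (SE 0.12, adjusted p = 0.00929) in each of the 16 alternatives. Its span overlaps *Atg4a*, so reads may be shared.

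The immunoproteasome genes and the PA28 activator genes *Psme1* and *Psme2* are known for their shared response to interferon. Promoters of *Psmb8*, *Psmb9*, *Psmb10*, *Psme1* and *Psme2* are shown as this class, and no promoter of a constitutive member is printed beside them. Whether a motif goes with a change in expression was not tested. Each run is the 250 bases before the gene start in RefSeq (GRCm38.p6, the assembly called mm10), 5′ to 3′ on the gene's strand. Windows were found for 36 of the 43 members. Capitals mark matches, on either strand, to any of 6 motifs: the antioxidant response element in its forms TGACNNNGC and TGAGNNNGC, the CCAAT box (CCAAT), the GC box (GGGCGG), the core of the interferon-stimulated response element (TTTCNNTTT) and the gamma-activated site (TTCNNNGAA).
Psmb8 promoter (chr17:34197945-34198194, plus strand): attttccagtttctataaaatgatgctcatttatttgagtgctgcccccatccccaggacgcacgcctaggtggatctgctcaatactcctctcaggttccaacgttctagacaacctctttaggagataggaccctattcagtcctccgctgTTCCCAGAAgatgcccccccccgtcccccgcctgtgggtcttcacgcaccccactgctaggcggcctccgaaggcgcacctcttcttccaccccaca
Psmb9 promoter (chr17:34187331-34187580, minus strand): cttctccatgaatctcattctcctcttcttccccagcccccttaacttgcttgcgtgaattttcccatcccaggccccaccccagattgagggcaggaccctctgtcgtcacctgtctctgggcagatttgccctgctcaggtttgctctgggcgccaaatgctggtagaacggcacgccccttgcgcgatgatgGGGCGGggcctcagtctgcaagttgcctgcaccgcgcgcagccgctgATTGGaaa
Psmb10 promoter (chr8:105938393-105938642, minus strand): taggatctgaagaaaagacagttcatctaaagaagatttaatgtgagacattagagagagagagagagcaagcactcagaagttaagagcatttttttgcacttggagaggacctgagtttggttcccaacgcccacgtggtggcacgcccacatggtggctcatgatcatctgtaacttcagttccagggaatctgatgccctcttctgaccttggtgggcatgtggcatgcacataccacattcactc
Psme1 promoter (chr14:55578244-55578493, plus strand): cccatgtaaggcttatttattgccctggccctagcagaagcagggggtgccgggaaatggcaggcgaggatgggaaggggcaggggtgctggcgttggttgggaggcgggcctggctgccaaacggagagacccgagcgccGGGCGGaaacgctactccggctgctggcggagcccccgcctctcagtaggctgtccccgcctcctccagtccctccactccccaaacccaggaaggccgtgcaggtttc
Psme2 promoter (chr14:55591102-55591351, minus strand): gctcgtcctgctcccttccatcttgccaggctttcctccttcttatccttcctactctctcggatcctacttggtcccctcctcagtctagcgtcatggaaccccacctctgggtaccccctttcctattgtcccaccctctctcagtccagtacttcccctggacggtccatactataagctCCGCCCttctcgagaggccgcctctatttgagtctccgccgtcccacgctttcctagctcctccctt

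*Psmb8* was the 1 member of 36 (2.78%) with a gamma-activated site in this window, 97 to 89 bases before the start, where 7.18% of 27025 gene windows held one. The sequence read there was TTCCCAGAA. No match to the interferon-stimulated element was found in these 5 windows, and 4 of the 36 members (11.1%, against 9.52% of all genes) held one. *Psme1*, *Psme2* and *Psmb9* each held a GC box, as did 21 of the 36 members (58.3%, against 32.9% of all genes). *Psmb9* also held a CCAAT box, found in 38.9% of members and 34.5% of all genes. The antioxidant response element, which NRF1 and NRF2 bind, was found in 5 members (13.9%, against 10.1%) in the first form and in 7 (19.4%, against 14.2%) in the second. Median GC content was 57.4% in the members' windows and 52% in all windows. A match says only that the letters are present.

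The largest change of any member against a control was in the immunoproteasome. *Psmb8* (gene ID 16913, chromosome 17, 34198195 to 34201454, the counterpart of *Psmb5*) measured 3.14, 3.90 and 3.17 CPM under DMSO, 4.23, 4.54 and 3.43 CPM under XAV939 and 1.45, 1.35 and 1.28 CPM under IWR-1. These values are low, with 101 to 134 counts per DMSO library and 42 to 50 per IWR-1 library, yet no IWR-1 library came near a DMSO library. *Psmb8* fell by 1.32 on the log2 scale with IWR-1 (SE 0.18, adjusted p = 0.000246), a fold of 0.40, and the change ranged from −1.38 to −1.22 over 16 alternatives with adjusted p from 8.15e-08 to 0.00201. With XAV939 the change was 0.25 (SE 0.17, adjusted p = 0.33) and the groups overlapped. With siTnks/2, 1.04, 0.535 and 1.24 CPM stood below 1.71, 1.44 and 2.05 CPM under siCtrl. That change of −0.88 (SE 0.32, 15 to 38 counts per siTnks/2 library) had an adjusted p of 0.098, and 0.0252 with the replicate block.

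*Psmb9* and *Psmb10*, the counterparts of *Psmb6* and *Psmb7*, had other patterns. *Psmb10* measured 11.04, 12.6 and 8.58 CPM under DMSO, 19.97, 19.3 and 13.3 CPM under XAV939 and 15.9, 14.3 and 14.96 CPM under IWR-1. All libraries with either compound lay above the DMSO libraries, and *Psmb10* rose by 0.70 with XAV939 (SE 0.18, adjusted p = 0.0215), a call lost in the same 5 alternatives as that of *Psmc5*. With IWR-1 the change was 0.48 (SE 0.18, adjusted p = 0.0556, and 0.00773 with the block), and with siTnks/2 it was 0.10 (adjusted p = 0.437). *Psmb9* had only 10 to 60 counts per library and measured 0.854, 1.11 and 0.629 CPM under DMSO, 1.19, 2.25 and 1.14 CPM under XAV939 and 0.785, 0.706 and 0.899 CPM under IWR-1. XAV939 libraries were higher than the others, with replicate 2 at the top. The *Psmb9* change was 0.80 with XAV939 (SE 0.31, adjusted p = 0.106, and 0.0387 with the block), −0.12 with IWR-1 (SE 0.33, adjusted p = 0.815) and −0.41 with siTnks/2 (SE 0.31, adjusted p = 0.389).

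The level of each immunoproteasome gene was also taken as a percentage of its constitutive partner, per kilobase of exons and with no test. *Psmb8* stood at 2.35% ± 0.332 of *Psmb5* with DMSO (SD, n = 3, as for the values that follow), 2.24% ± 0.312 with XAV939 and 0.678% ± 0.0228 with IWR-1. The IWR-1 libraries (0.656%, 0.677% and 0.702%) lay below every DMSO library. With siCtrl this ratio was 0.934% ± 0.218 and with siTnks/2 0.550% ± 0.214, with ranges that overlapped (0.749% for siCtrl replicate 2, 0.752% for siTnks/2 replicate 3). *Psmb10* was 11.6% ± 0.156 of *Psmb7* with DMSO, 16.7% ± 1.66 with XAV939 and 14.04% ± 1.27 with IWR-1, and neither compound overlapped DMSO. *Psmb9* was at most 1.11% of *Psmb6* in any library.

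**Figure D2:**
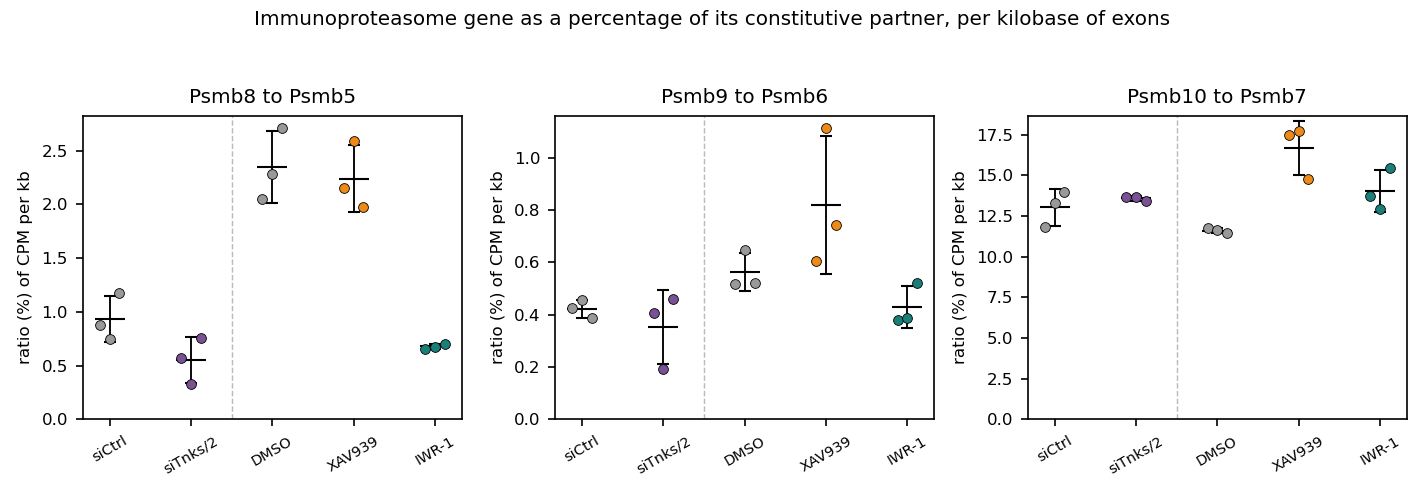
Level of *Psmb8*, *Psmb9* and *Psmb10* as a percentage of *Psmb5*, *Psmb6* and *Psmb7* (vertical axes, CPM per kilobase of exons) in each library (points) with mean and SD (bars, n = 3), by group. The *Psmb8* ratio is lowest in the drug set with IWR-1 (0.678%) and the *Psmb10* ratio is highest with XAV939 (16.7%).

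Of the 4 activators, *Psme1* fell with IWR-1. *Psme1* and *Psme2* encode the PA28 ring that docks on the core in place of the cap and is inducible by interferon. They are neighbours on chromosome 14 (55578494 to 55581527 and 55587440 to 55591101). *Psme1* measured 48.6, 57.5 and 37.4 CPM under DMSO, 52.7, 47.5 and 43.1 CPM under XAV939 and 35.2, 26.6 and 25.6 CPM under IWR-1. All IWR-1 libraries lay below the others of the table, and *Psme1* fell by 0.72 (SE 0.17, adjusted p = 0.00758) in each of 16 alternatives, with adjusted p from 0.000447 to 0.0384. Its span overlaps *Emc9*. The XAV939 change was −0.0030 (SE 0.17, adjusted p = 0.994). With siTnks/2, 19.4, 20.3 and 22.1 CPM stood just below 23.4, 23.8 and 26.1 CPM under siCtrl, a change of −0.25 (adjusted p = 0.078, and 0.0247 with the block).

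*Psme2*, its partner in the ring, passed the test with siTnks/2 and missed it with IWR-1. It measured 48.5, 48.6 and 57.9 CPM under siCtrl and 40.3, 38.9 and 38.8 CPM under siTnks/2, and fell by 0.39 (SE 0.08, adjusted p = 0.0224). That call was lost without siCtrl replicate 1 or 3 or siTnks/2 replicate 1 or 3. With IWR-1 *Psme2* measured 70.1, 55.4 and 56.2 CPM against 71.6, 73.1 and 51.4 CPM under DMSO, a change of −0.11 (SE 0.21, adjusted p = 0.718). The difference between those effects, in a model over all 15 libraries, was 0.28 (SE 0.25, adjusted p = 0.463) and was not called. Reads of *Psme2* may be split with *Psme2b*. *Psme3*, a nuclear activator, measured 116, 122 and 115 CPM under IWR-1 and 93.6, 93.4 and 92.5 CPM under DMSO. These groups were far apart for their spread, and *Psme3* rose by 0.33 (SE 0.08, adjusted p = 0.00976), a call lost without IWR-1 replicate 2 (adjusted p = 0.0526). *Psme4*, known as PA200, measured 118, 121 and 121 CPM under siTnks/2 and 99.6, 101 and 101 CPM under siCtrl. It was the 1 member that rose with knockdown, by 0.25 (SE 0.05, adjusted p = 0.0157), and without siCtrl replicate 1, 2 or 3 or siTnks/2 replicate 1 the call was lost. Its span overlaps *Erlec1*. With XAV939 *Psme4* measured 93.7, 79.1 and 92.8 CPM and with DMSO 92.1, 91.9 and 109.7 CPM, and these groups overlapped.

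**Figure D3:**
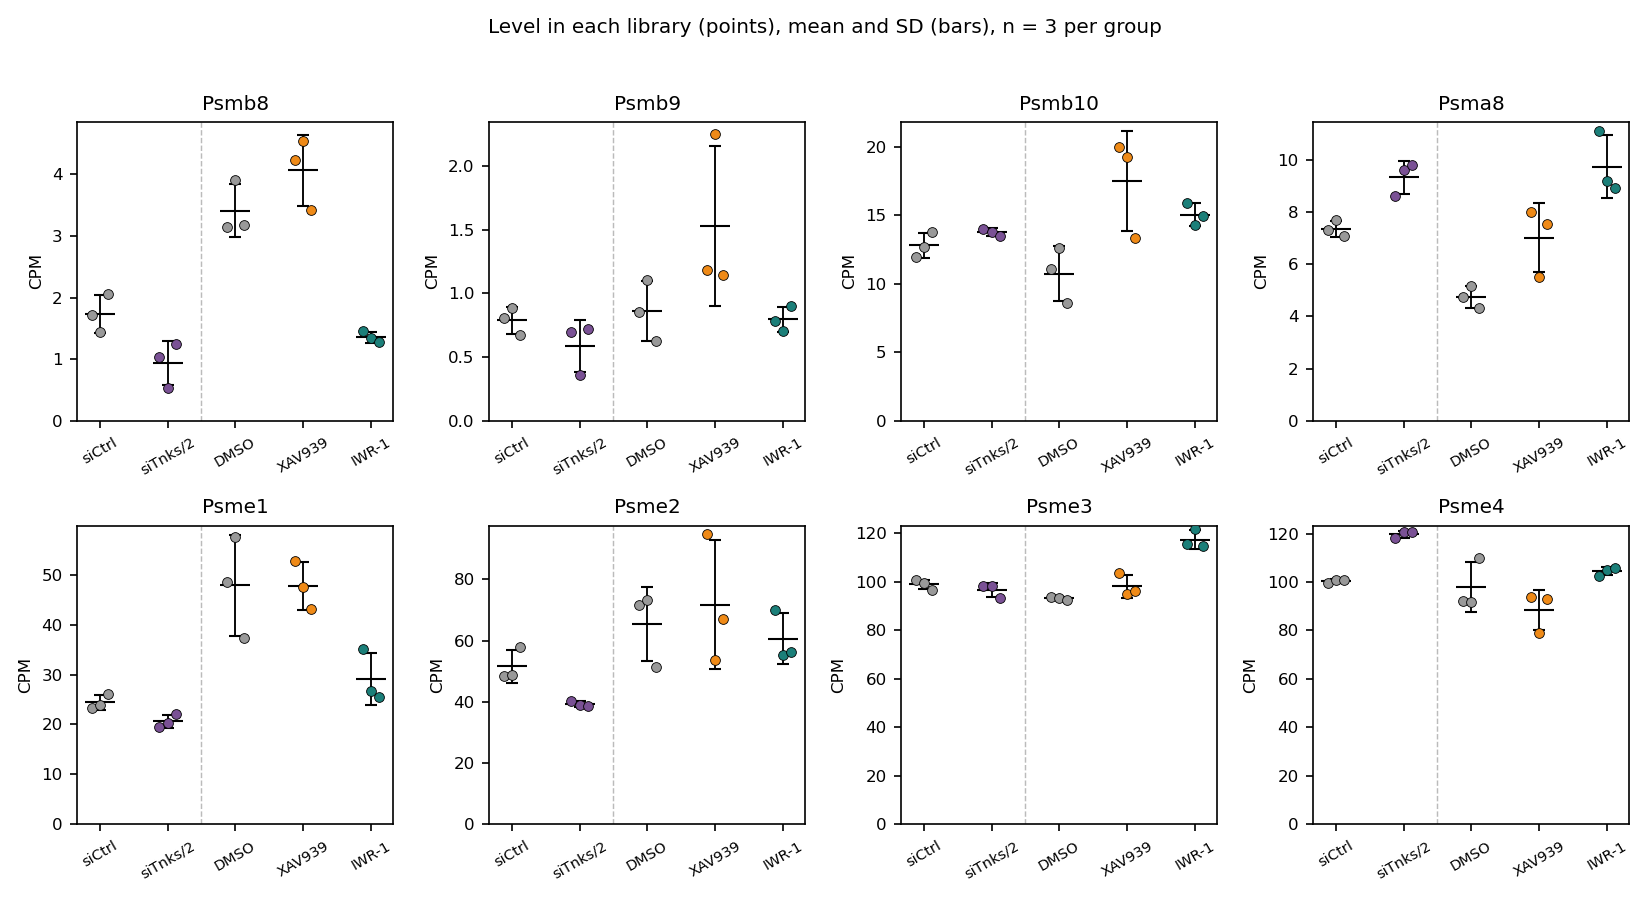
CPM (vertical axes) of *Psmb8*, *Psmb9*, *Psmb10*, *Psma8* and the 4 activators in each library (points) with mean and SD (bars, n = 3), the siRNA set left of the dashed line and the drug set right of it. *Psmb8* and *Psme1* are lowest of the drug set with IWR-1, at 1.28 to 1.45 CPM and 25.6 to 35.2 CPM.

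IWR-1 and XAV939 were compared directly, at the same dose and time, as the 1 pair of compounds in the data. *Psmb8* and *Psme1* were lower with IWR-1, and no member was higher (0 called by edgeR, 3 at an unadjusted p under 0.05, 2 by DESeq2). These are 4.76% of the 42 members, where 7.37% of all genes were higher and 10.2% lower. *Psmb8* differed by −1.58 on the log2 scale (95% interval −1.98 to −1.18, adjusted p = 0.000373), and this call held in all 15 alternatives with adjusted p of at most 0.0035. *Psme1* differed by −0.71 (95% interval −1.09 to −0.33, adjusted p = 0.0162), a call lost without IWR-1 replicate 2 (0.0776), IWR-1 replicate 3 (0.0575) or XAV939 replicate 1 (0.06). With the replicate block, 2 members were higher and 4 lower (14.1% and 16.6% of all genes). The block added *Psmb9* (−0.87, adjusted p = 0.0289), *Psmd10* (−0.36, adjusted p = 0.0141), *Psma8* (0.47, adjusted p = 0.0293) and *Psme3* (0.26, adjusted p = 0.0322). Of the 40 members not called, 33 had an interval that lay within 0.5 of 0, so a difference of that size in either direction lay outside it. For the other 7 the interval reached past 0.5, and it was widest for *Psmb9* (−1.61 to −0.21). *Psmb10* differed by −0.22 (95% interval −0.61 to 0.17) and *Psmb5* by 0.14 (−0.16 to 0.45). The median difference over the members was 0.020 and turned to −0.0030 with upper-quartile scaling.

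**Figure D4:**
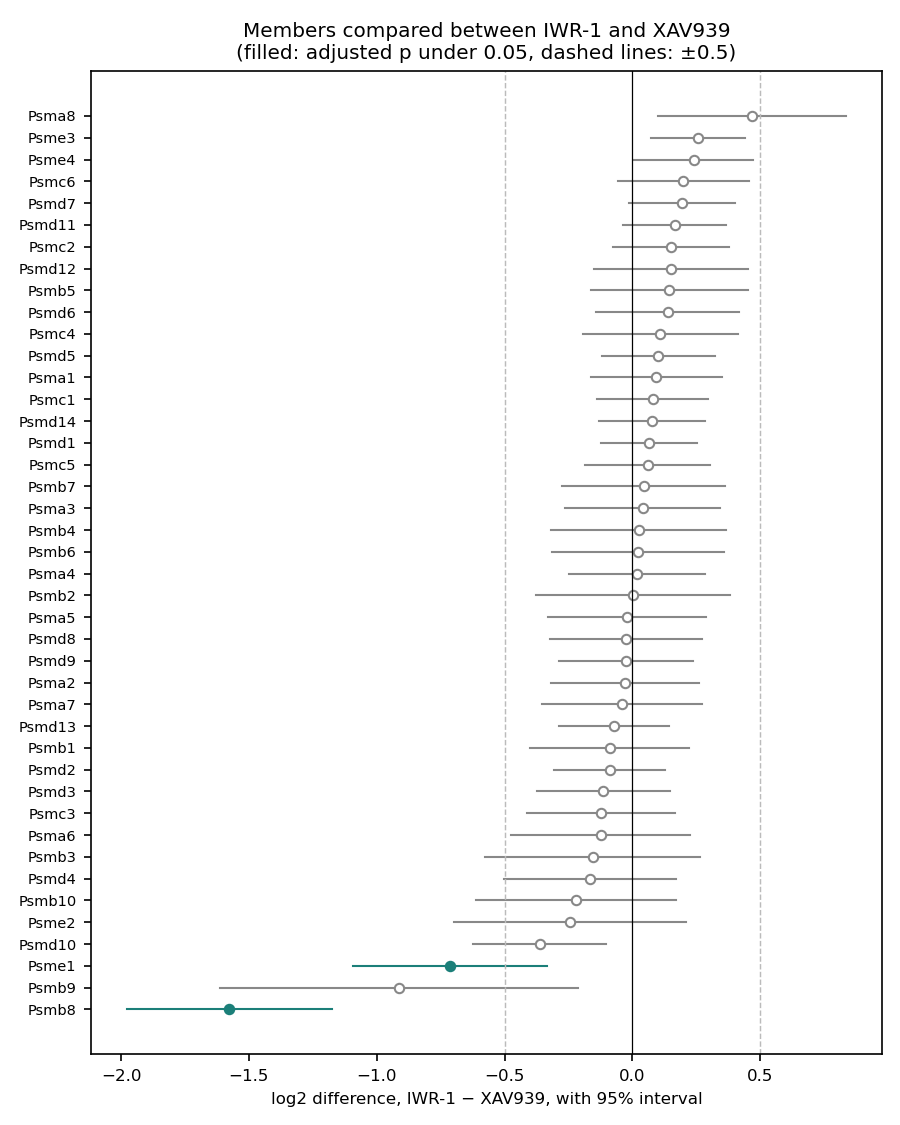
Log2 difference between IWR-1 and XAV939 with its 95% interval (horizontal axis) for the 42 tested members, ordered by size, with filled points past an adjusted p of 0.05 and dashed lines at ±0.5. *Psmb8* (−1.58) and *Psme1* (−0.71) are the filled points, and 33 of the others have intervals between the dashed lines.

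Whether a compound and the knockdown changed a member by different amounts was tested with an interaction term over all 15 libraries. For XAV939 against knockdown, 2 members were called with a more positive effect and 1 with a more negative one, where 5.4% of 14271 genes were more positive and 8.07% more negative. *Psmb8* changed by 0.25 with XAV939 and −0.88 with siTnks/2, a difference of 1.12 (SE 0.33, adjusted p = 0.0396), which 11 single libraries could remove when left out. *Psmc5* differed by 0.53 (SE 0.13, adjusted p = 0.0153) and *Psme4* by −0.41 (SE 0.12, adjusted p = 0.04), and the *Psme4* call was lost in 13 of 21 alternatives. With the block 8 members were more positive and 1 more negative (12.7% and 15.4% of all genes). For IWR-1 against knockdown, 5 members were more positive and 0 more negative (2 at an unadjusted p under 0.05, 0 by DESeq2), where 10.5% of all genes were more positive and 13.9% more negative. They were *Psmc5* (0.59, adjusted p = 0.0039), *Psme3* (0.36, adjusted p = 0.0139), *Psmd7* (0.37, adjusted p = 0.0194), *Psmb5* (0.58, adjusted p = 0.0206) and *Psma8* (0.68, adjusted p = 0.0247). The *Psmc5* call held in all 21 alternatives, and the *Psme3* call was lost without IWR-1 replicate 2 (0.0507). Without IWR-1 replicate 1 the calls of *Psmd7* (0.0821), *Psma8* (0.0741) and *Psmb5* (0.067) were lost, and each was also lost without 1 to 3 other single libraries. The block raised this to 11 more positive and 1 more negative (17% and 19.3% of all genes). For *Psmb8* the difference between the IWR-1 and siTnks/2 effects was −0.45 (SE 0.35, adjusted p = 0.376) and was not called.

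Genes that build, control or use the proteasome were counted in lists. Among all genes, 10.4% rose and 7.61% fell with siTnks/2, 7.57% and 9.85% with XAV939, and 16.2% and 20.2% with IWR-1. With the replicate block these shares were 18.1% and 16.5%, 16% and 17.4%, and 22.2% and 25.3%. Of 16 tested genes for assembly factors, inhibitors and accessory proteins, 1 rose and 0 fell with siTnks/2 (3 lower at an unadjusted p under 0.05, 0 by DESeq2), 0 were called with XAV939 (3 higher and 2 lower unadjusted, 1 higher by DESeq2) and 1 rose with IWR-1. With the replicate block these were 1 higher and 1 lower, 3 higher and 2 lower, and 2 higher. *Zfand5*, whose product binds the proteasome, rose by 0.32 with siTnks/2 (SE 0.07, adjusted p = 0.0221, lost without siCtrl replicate 1, 2 or 3 or siTnks/2 replicate 1, at 0.0585 to 0.0965), and *Psmg2*, a chaperone of the alpha ring, rose by 0.75 with IWR-1 (SE 0.16, adjusted p = 0.00332). *Psmg2* measured 21.0, 26.1 and 18.6 CPM under DMSO and 40.4, 39.1 and 31.0 CPM under IWR-1, with no overlap. *Ecpas*, a proteasome-binding scaffold, was higher with IWR-1 than with XAV939 (0.38, SE 0.11, adjusted p = 0.0301), except without any 1 of 5 libraries of these groups. *Pomp*, the maturation factor of the core, and *Psmf1*, an inhibitor, were called in no comparison against a control, with changes from −0.19 to 0.13. None of the 6 genes for ubiquitin and its activating enzymes was called against a control (edgeR, with 1 higher at an unadjusted p under 0.05, with XAV939, and 0 by DESeq2), while the block called 1 higher and 1 lower with each compound.

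*Nfe2l1* encodes NRF1, the membrane-bound factor that induces proteasome genes when proteasome activity is short. It measured 729, 590.0 and 721 CPM under siCtrl and 985, 855 and 909 CPM under siTnks/2, and 519, 516 and 620 CPM under DMSO against 757, 970 and 874 CPM under IWR-1. *Nfe2l1* rose by 0.43 with siTnks/2 (SE 0.11, adjusted p = 0.0357, lost without any 1 of 5 libraries) and by 0.65 with IWR-1 (SE 0.14, adjusted p = 0.00451, kept in 16 alternatives). *Nfe2l2*, which encodes NRF2, fell by 0.48 with IWR-1 (SE 0.15, adjusted p = 0.0267), a call lost without DMSO replicate 2 or 3 or IWR-1 replicate 1 or 2. Of the 7 genes listed for NRF1 and its processing, *Nfe2l2* among them, 1 rose and 0 fell with siTnks/2 (0 lower at an unadjusted p under 0.05). With IWR-1, 1 rose and 1 fell. Among all genes 10.4% rose and 7.61% fell with siTnks/2, and 16.2% and 20.2% with IWR-1. None of the 7 was called with XAV939 (edgeR, with 1 lower at an unadjusted p under 0.05 and 0 by DESeq2), where 7.57% of all genes rose and 9.85% fell. The block called 1 lower, *Nfe2l2* (−0.38, adjusted p = 0.0101).

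Of the 13 partners of the immunoproteasome in antigen processing, 10 were called with IWR-1 and 3 were not. With IWR-1, 8 fell and 2 rose, where 20.2% of all genes fell and 16.2% rose, and the list's median change was −0.46 against 0.0056 for all genes. *H2-K1*, an MHC class I heavy chain, measured 134, 176 and 94.9 CPM under DMSO, 109.5, 127 and 90.5 CPM under XAV939 and 48.8, 64.5 and 48.7 CPM under IWR-1. IWR-1 libraries lay below all others of the table, and *H2-K1* fell by 1.32 (SE 0.22, adjusted p = 0.000724). *Tapbp*, which encodes tapasin of the peptide-loading complex, fell by 0.66 (SE 0.12, adjusted p = 0.00125), from 303, 300.3 and 249.8 CPM to 182, 179 and 179 CPM.

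With XAV939, 3 of the 13 partners rose and 0 fell (0 lower at an unadjusted p under 0.05 and 0 by DESeq2), against 7.57% and 9.85% of all genes, and the median was 0.057. *Tap2*, a chain of the peptide transporter, rose by 0.54 (SE 0.14, adjusted p = 0.0227), and *Tapbpl* by 0.37 (SE 0.11, adjusted p = 0.0459). The *Tap2* call was lost in 4 of 16 alternatives and the *Tapbpl* call in 11 of 16. Between the compounds, 7 partners were lower and 0 higher with IWR-1 (0 higher at an unadjusted p under 0.05 and 0 by DESeq2), where 10.2% of all genes were lower and 7.37% higher. Those of smallest adjusted p were *Tapbp* (−0.74, adjusted p = 0.00184), *Tap1* (−0.62, adjusted p = 0.00263) and *Nlrc5* (−0.70, adjusted p = 0.0064). *Nlrc5* encodes the transactivator of MHC class I genes. With siTnks/2 none of the 13 was called (edgeR, with 3 lower at an unadjusted p under 0.05 and 0 by DESeq2), and the median was −0.05, while the block called 1 higher and 3 lower, among them *Tap2* (−0.49, adjusted p = 0.00743) and *Tap1* (−0.37, adjusted p = 0.0495).

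**Figure D5:**
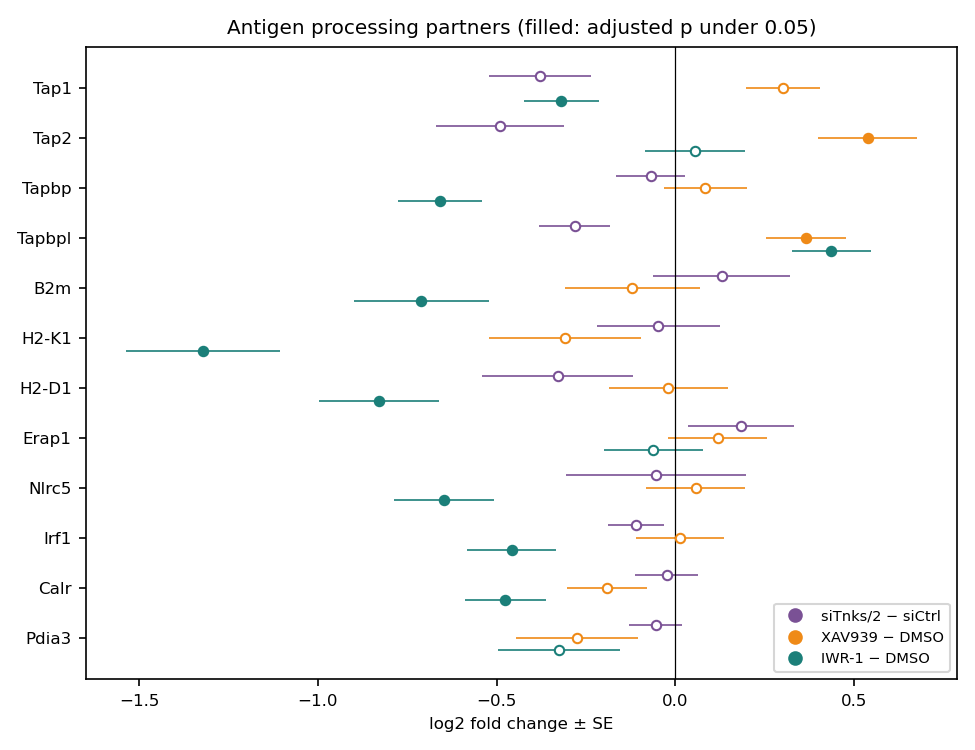
Log2 fold change with its standard error (horizontal axis) of 12 of the 13 antigen processing partners with siTnks/2, XAV939 and IWR-1, each against its control, where filled points passed an adjusted p of 0.05. With IWR-1, 8 filled points lie left of 0, with *H2-K1* at −1.32 farthest out, and *Tapbpl* (0.44) lies right of it.

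Markers of leukocytes, which use the immunoproteasome, were summed beside these results. Over 12 markers the sum was 13.5 to 18.04 CPM under DMSO, 20.1 to 26.5 CPM under XAV939 and 18.5 to 21.4 CPM under IWR-1. It was 15.5 to 17.8 CPM under siCtrl and 37.2 to 59.5 CPM under siTnks/2, mostly from *Laptm5*, which went from 10.2 to 13.2 CPM to 30.7 to 53.8 CPM. *Ptprc*, the defining leukocyte antigen CD45, had at most 5 counts in any library and was at 0 in 6 of 15, while *Cd3e* was at 0 in 14 of 15. Of the 6 leukocyte markers tested in the drug set, 2 rose and 2 fell with IWR-1, where 16.2% of all genes rose and 20.2% fell. Of these 6 markers, 4 had negative changes with IWR-1, and their median was −0.19. With XAV939, 2 of the 6 rose and 0 fell (median 0.65), where 7.57% of all genes rose and 9.85% fell. With siTnks/2, 1 of 4 tested rose and 0 fell (median 0.69), where 10.4% of all genes rose and 7.61% fell. In both, 0 were lower at an unadjusted p under 0.05. The part of these markers in the changes of the members was not tested. The chondrocyte markers moved in every comparison. Their sum was 27360 to 36793 CPM under DMSO, 37552 to 56605 CPM under XAV939 and 89763 to 113255 CPM under IWR-1, and it was 85894 to 114895 CPM under siCtrl and 121363 to 196541 CPM under siTnks/2. All 9 rose with IWR-1, 3 with XAV939 and 2 with siTnks/2 (8 and 7 with the block), where 16.2%, 7.57% and 10.4% of all genes rose. With the block, 16% of all genes rose with XAV939 and 18.1% with siTnks/2. The part of this shift in the members' changes was not tested either.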

How the data were processed

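RNA was sequenced by the study from 15 libraries (TruSeq Stranded mRNA). According to the study's methods and its processing notes, the authors used Trimmomatic 0.32 for trimming, TopHat2 2.0.13 for alignment (mm10) and HTSeq 0.6.1p1 for counting per gene, and deposited raw counts for 24134 genes in an siRNA table and a drug table. The strand setting and annotation of that counting are not given in the sources used here, so overlapping genes may share reads. Symbols came from RefSeq (GRCm38.p6) for 24051 gene IDs. Lengths for levels per kilobase were unions of exons in GENCODE's mm10 annotation.

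Each table was tested with edgeR 4.0.16 (R 4.3.3, TMM scaling, filterByExpr, quasi-likelihood F test, no replicate block), with all groups of a table sharing 1 estimate of the spread, and with all 15 libraries for interactions. P-values were adjusted by Benjamini-Hochberg over all genes tested, and a call was an adjusted p under 0.05. The steps were tested on simulated data. Alternatives were RLE and upper-quartile scaling, no filter, at least 10 counts in every library, DESeq2 1.42.0, the replicate number as a block, only the groups compared, and each library left out. Counts for the antigen processing list under these settings were added after the data were seen. The number of libraries, 3 per group, limits the precision, and p-values measure the spread between these libraries. The members and gene lists were chosen with earlier results of these data known. The catalytic, immunoproteasome and activator genes were named, with the 4 called members of smallest adjusted p per direction in each comparison against a control. Of other lists, at most 3 called genes per comparison were named, plus *Psmf1*, *Pomp*, *Nfe2l1* and *Nfe2l2*. *Psmd14*, *Psmc2*, *Psmd8*, *Psmb3*, *Psmc4*, *Psma1* and *Laptm5* were named after their values were seen.

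The main test did not pair libraries, and only the fits with the replicate block used the replicate numbers in the labels. Deviations of same-numbered libraries from their group means correlated at 0.487 to 0.554 in 3 pairs of the siRNA set. Libraries of different number correlated there at −0.469 to 0.137 in 6 pairs. In the drug set, same-numbered libraries correlated at 0.153 to 0.680 in 9 pairs. Those of different number correlated at −0.644 to 0.477 in 18 pairs, so the ranges overlapped. Of the antigen processing list and the leukocyte markers, 1 gene each is counted but not reported by name here.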

Additional observations from a re-analysis of the deposited data

Results flagged for a closer look

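The effects of a compound and of the knockdown differed for 7 members, by an interaction term in edgeR over all 15 libraries. For XAV939 minus knockdown the log2 difference was 0.53 for *Psmc5* (adjusted p = 0.0153), 1.12 for *Psmb8* (adjusted p = 0.0396) and −0.41 for *Psme4* (adjusted p = 0.04). Here 4.76% of the 42 members were more positive and 2.38% more negative, against 5.4% and 8.07% of 14271 genes. Of 21 alternatives, 11 lost the *Psmb8* call and 13 lost that of *Psme4*. For IWR-1 minus knockdown the log2 difference was 0.59 for *Psmc5* (adjusted p = 0.0039), 0.36 for *Psme3* (adjusted p = 0.0139), 0.37 for *Psmd7* (adjusted p = 0.0194), 0.58 for *Psmb5* (adjusted p = 0.0206) and 0.68 for *Psma8* (adjusted p = 0.0247). Here 11.9% of the members were more positive and 0% more negative, against 10.5% and 13.9% of all genes. Of 21 alternatives, 4 lost the *Psmd7* call, 4 that of *Psma8*, 2 that of *Psmb5* and 1 that of *Psme3*. The compounds and the siRNAs were given in separate sets with their own controls, so the kind of treatment and the set cannot be told apart.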

How the results depend on the processing

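No member or named gene that passed the threshold in the main test or in the alternative changed direction between them, while some values that passed in neither lay on both sides of 0. With the replicate block the members called numbered 11 for siTnks/2, 8 for XAV939, 14 for IWR-1, 6 for IWR-1 against XAV939, 9 for XAV939 against knockdown and 12 for IWR-1 against knockdown. In the same order, the block called 18.1%, 16%, 22.2%, 14.1%, 12.7% and 17% of all genes higher. It called 16.5%, 17.4%, 25.3%, 16.6%, 15.4% and 19.3% of all genes lower. Of the members it called 4.76%, 16.7%, 23.8%, 4.76%, 19% and 26.2% higher, and 21.4%, 2.38%, 9.52%, 9.52%, 2.38% and 2.38% lower. DESeq2 called 5 for IWR-1 against XAV939, and the fit of only DMSO and XAV939 called 0 (6 at an unadjusted p under 0.05). As each library was left out, the counts ranged from 0 to 7 for siTnks/2, 0 to 2 for XAV939, 6 to 11 for IWR-1, 1 to 4 for IWR-1 against XAV939, 1 to 6 for XAV939 against knockdown and 3 to 7 for IWR-1 against knockdown. The antigen processing partners called ranged from 7 to 11 with IWR-1 and from 5 to 8 between the compounds. Calls with IWR-1 of *Psmb8*, *Psme1*, *Psma8*, *Psmd7*, *Psmc5* and *Psmd10* held in all 16 alternatives. For single named genes, 3107 values kept their side of the threshold, 141 lost it and 85 gained it. Ratios per kilobase differ from those of plain CPM by the lengths of the genes. In the order siCtrl, siTnks/2, DMSO, XAV939 and IWR-1, *Psmb8* to *Psmb5* was 0.934, 0.550, 2.35, 2.24 and 0.678% per kilobase (1.69, 0.996, 4.25, 4.06 and 1.23% in CPM). *Psmb9* to *Psmb6* was 0.423, 0.353, 0.562, 0.820 and 0.430% per kilobase (0.716, 0.599, 0.953, 1.39 and 0.728% in CPM). *Psmb10* to *Psmb7* was 13.03, 13.6, 11.6, 16.7 and 14.04% per kilobase (14.7, 15.4, 13.1, 18.8 and 15.9% in CPM). Counts were low for *Psmb9* (10 to 60 per library) and for *Psmb11* (at most 8, not tested).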
